A study of Mus musculus with 2 samples.

Results

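The genes of the sensors that start the unfolded protein response (UPR) and of the kinases that phosphorylate eIF2α were followed in 4T1 cells, a murine mammary carcinoma line, after treatment with astragalin (AS), a plant flavonoid. They were chosen by name, with earlier results of these data known. The 10 genes are Ern1, Eif2ak3, Atf6, Atf6b, Xbp1, Eif2ak1, Eif2ak2, Eif2ak4, Mbtps1 and Mbtps2, and all 10 were found among the 14197 genes of the deposited table. RNA-sequencing gave 1 library of wild-type 4T1 cells that received 20 μM AS for 24 h and 1 library of the same cells with the vehicle. With 1 library per condition, no difference has a replicate check, no test between conditions can be made, and any other difference between the dishes cannot be told apart from AS.

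Proteins in the membrane of the endoplasmic reticulum (ER) sense misfolded proteins in its lumen and signal to the cytosol and nucleus. IRE1 (Ern1) is a kinase and an RNase that removes a short intron from the Xbp1 mRNA, so that the XBP1 transcription factor can be made in its active form. PERK (Eif2ak3) phosphorylates eIF2α, which lowers translation in general and favours translation of the ATF4 transcription factor. The same site of eIF2α is phosphorylated by HRI (Eif2ak1), which responds to heme shortage and mitochondrial stress, by PKR (Eif2ak2), which binds double-stranded RNA, and by GCN2 (Eif2ak4), which responds to amino acid shortage. ATF6 (Atf6) and its relative ATF6B (Atf6b) move to the Golgi, where site-1 protease (Mbtps1) and site-2 protease (Mbtps2) release their transcription factor part. Much of the control of these proteins is by binding, phosphorylation, splicing or cleavage, none of which is read by a gene-level RNA table.

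The sequence on which IRE1 acts is shown because a level of Xbp1 does not tell its spliced from its unspliced form. In mouse Xbp1 the intron is 26 bases long and lies in exon 4 of 5, at chr11:5524279-5524304 on the plus strand (GRCm38). It was found in the GENCODE M21 transcripts as a pair of CNGCAGC sites spaced by the length of the intron, which 3 of 3 coding Xbp1 transcripts hold and 0.25% of 58797 coding transcripts in all. The capitals mark the bases between the cuts, and the lower case letters are the exon bases that IRE1 processing leaves to be joined.
Xbp1: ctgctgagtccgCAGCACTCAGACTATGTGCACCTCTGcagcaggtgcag
Reads of both forms are summed in the Xbp1 values that follow.

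The level of each gene was deposited as RPKM, the reads of a gene scaled to its exon length and to the size of the library. Whole reads were recovered from these values, 44820066 on all genes with AS and 50723571 with the vehicle. The genes had from 619 to 8954 reads in a library, so that counting error was small, and the 95% intervals given here cover counting error only. The sources name no molecular identifiers, without which a read is not an independent molecule. The median log2 ratio of AS to vehicle across all genes was 0.07, and 60.9% of genes were higher with AS. Of 8 epithelial markers 7 were analysed, and these summed to 1776 RPKM with AS against 2303 RPKM. Of the 7, 6 were lower with AS, and 1, Cdh1, was higher at 95.5 against 84.6. Epcam was at 335 against 357, and Krt14, the lowest on the log2 scale, at 12.7 against 24.7. The markers named here were chosen after their values were seen. Of 11 markers of leukocytes, endothelium, fibroblasts and adipocytes 6 were analysed, none of them listed at 0, with summed RPKM of 30.8 and 34.4, of which Cd68 made 24.0 and 28.1. Cd68 was the only one of the 6 that was lower with AS, and the other 5 were higher by 0.01 to 0.30 on the log2 scale. The lower keratin values moved with AS, and their part in the values of the sensors and kinases was not tested. In such bulk RNA, fewer cells of a type and less RNA per cell cannot be told apart.

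In the vehicle library, PKR had the most abundant of the 10 mRNAs per length and IRE1 the least abundant. Eif2ak2 had an RPKM of 34.5, Xbp1 of 22.1 and Mbtps1 of 14.0, and these led the order in both libraries. Eif2ak1 followed at 7.94, Eif2ak4 at 5.94, Atf6b at 4.66, Atf6 at 4.52, Eif2ak3 at 3.95, Mbtps2 at 3.69 and Ern1 at 3.12. The median gene of the vehicle library had an RPKM of 4.79, so 5 of the 10 genes lay above it and 5 below. Neighbours whose counting intervals overlapped were Atf6b with Atf6 and Eif2ak3 with Mbtps2. With AS the order from the top was Eif2ak2 at 34.5, Xbp1 at 20.4, Mbtps1 at 16.5, Eif2ak1 at 9.09, Ern1 at 6.61, Atf6 at 6.38, Eif2ak4 at 5.83, Atf6b at 4.999, Mbtps2 at 4.77 and Eif2ak3 at 4.32. Ern1 thus stood number 10 of 10 with the vehicle and number 5 with AS, and PERK held the lowest level with AS. The intervals of Ern1 and Atf6, and those of Atf6b and Mbtps2, overlapped in the AS library. The order in each library was the same when the values were turned into TPM.

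**Figure D1:**
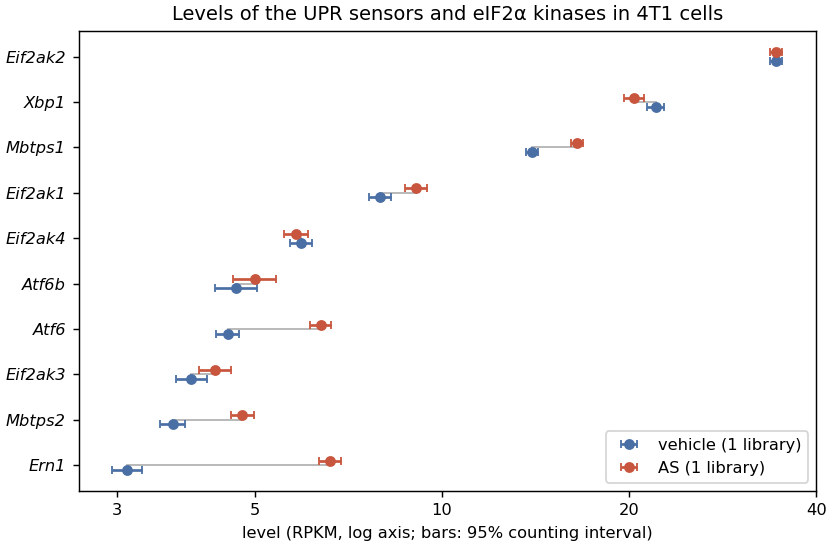
Level of each gene in the vehicle library (blue) and the AS library (red) in RPKM on a log axis, with 95% counting intervals as bars and 1 library per condition. Ern1 moves from 3.12, the lowest of the 10, to 6.61, number 5, while the points of Eif2ak2 lie on each other at 34.5.

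To see which of the genes differed between the libraries, the log2 ratio of AS to vehicle was taken after 0.1 RPKM was added to both values. The fold part of the study's rule, a log2 fold change beyond 1, was applied without a p-value. Only Ern1 was past it, and it was higher with AS. Over all genes, 0.662% were past 1 upward and 0.31% downward. In either direction this was 0.972% of genes. At the lower fold threshold of the study, 1.5-fold, Ern1 was again the only one of the 10, where 3.56% of all genes were past it upward and 2.01% downward, or 5.57% in either direction. In all, 7 of the 10 genes were higher with AS and 3 were lower, where 60.9% of all genes were higher. Their median log2 fold change was 0.16, or 0.12 without Ern1, beside 0.07 over all genes. The 9 genes other than Ern1 lay between -0.11 and 0.49. For 3 genes, Atf6b, Eif2ak2 and Eif2ak4, the counting interval of the ratio included 0. This depends on the scaling. The median of all genes, 0.07, was held by the intervals of Atf6b and Eif2ak3, and those of Eif2ak2 and Eif2ak4 lay below it.

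**Figure D2:**
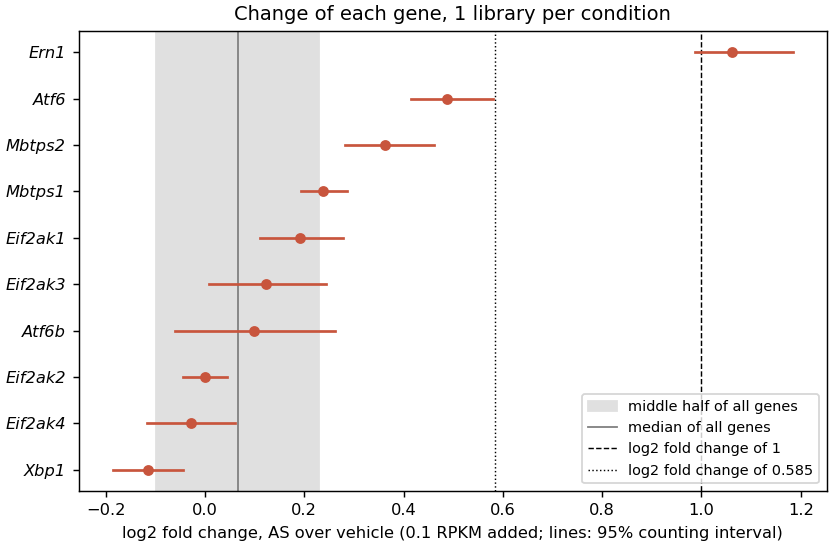
Log2 fold change of AS over vehicle for each gene (points, 0.1 RPKM added), with 95% counting intervals of the read ratio (lines), beside the median and the middle part of all genes from the lower to the upper quartile (grey). Ern1 at 1.06 lies apart from Atf6 at 0.49, and 5 of the 10 points lie between the quartiles of all genes.

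The size of these values has to be read beside a trend over all genes. Among the 10% of genes with the shortest exons the median log2 fold change was -0.04, and among the 10% with the longest it was 0.15. Most of the 10 genes are long, with summed exons from 2757 to 10539 bases where the median gene had 3929. Mbtps1 and Mbtps2 are in the longest 10%, and Ern1, Atf6 and Eif2ak4 are in the 10% next to it, where the median was 0.12. There 0.423% of genes were past 1 upward. Whether the trend has a part in the single values was not tested.

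**Figure D3:**
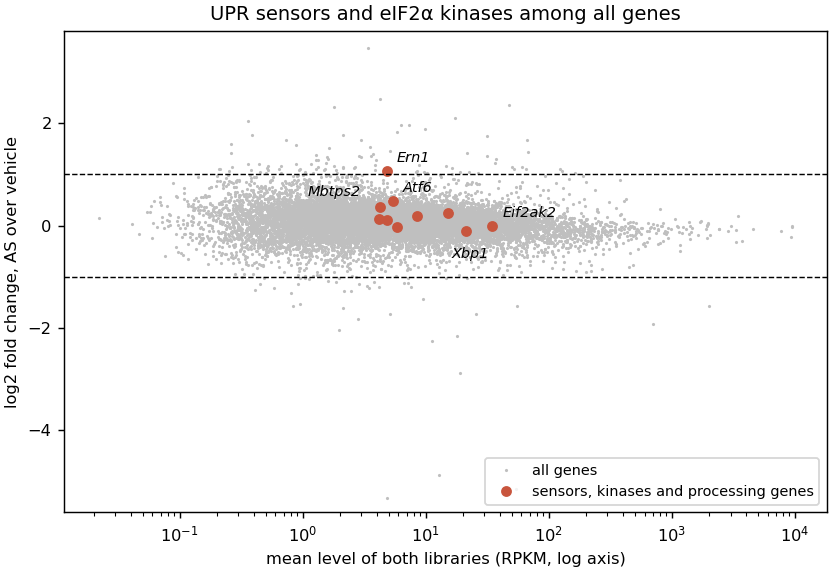
Log2 fold change of AS over vehicle against the mean RPKM of both libraries (log axis) for all 14197 genes (grey) and the 10 genes described here (red), with dashed lines at the fold threshold. Ern1 lies just above the upper line at a mean of 4.86 RPKM, and the other 9 lie between the lines.

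Ern1 was higher with AS, and Xbp1 was slightly lower. Ern1, on chr11:106394650-106487852 on the minus strand (GRCm38, GENCODE M21, as for the other genes), was at 6.61 RPKM with AS against 3.12 RPKM in the vehicle library, with 2426 and 1294 reads behind these values. Its log2 fold change was 1.06, and the ratio of the reads alone was 1.09 on the log2 scale with a 95% Clopper-Pearson interval from 0.99 to 1.18. This placed it number 78 of 14197 genes from the highest. The call was narrow: TMM or median-of-ratios scaling, which takes 0.07 off the log2 fold change of every gene, gave 0.99, and adding 1 RPKM gave 0.89. Xbp1, on chr11:5520659-5525893 on the plus strand, was at 20.4 RPKM with AS against 22.1 RPKM in the vehicle library, with 2970 and 3641 reads. Its log2 fold change of -0.11 was the lowest of the 10, with an interval from -0.19 to -0.05. There were 7.08 RPKM of Xbp1 for each RPKM of Ern1 in the vehicle library and 3.08 in the AS library. The difference of their log2 ratios, which does not move with the scaling, was 1.20 with a counting interval from 1.08 to 1.32.

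Genes around IRE1 did not pass the fold threshold, and 0.972% of all genes passed it in either direction. Counts of 0 in lists this short therefore say little about these genes. Of 17 listed regulators and partners of IRE1, 16 were analysed, and 0 were past the threshold of 1 upward or downward, with a median of 0.05. Ern2, the gene of the IRE1 paralog, was not analysed here. Dnajb9, whose protein brings the chaperone BiP to IRE1 and which XBP1 also targets, had the highest value, at 4.13 RPKM with AS against 2.93 RPKM, or 0.48 on the log2 scale. Hspa5, the gene of BiP, was at 214 RPKM with AS against 230 RPKM in the vehicle library. Of 16 XBP1 targets 0 were past 1, and the median was -0.01. Edem1, a gene of ER-associated degradation, was at 3.08 RPKM with AS against 3.15 RPKM in the vehicle library. IRE1 can also cut other mRNAs at the ER membrane, and 6 of 7 mRNAs listed as such decay substrates were analysed. Their median log2 fold change was -0.18, from -0.33 to 0.29, and 0 were past 1. Bloc1s1, a widely used readout of this decay that was chosen after its value was seen, was at 30.2 RPKM with AS against 37.0 RPKM in the vehicle library.

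The eIF2α kinases differed little between the libraries. PERK, encoded by Eif2ak3 on chr6:70844515-70905245, was at 4.32 RPKM with AS against 3.95 RPKM in the vehicle library, with 1168 and 1211 reads. Its log2 fold change was 0.12, and the interval from 0.01 to 0.24 held the median of all genes. HRI, encoded by Eif2ak1 on chr5:143817788-143904251, was at 9.09 RPKM (2315 reads) with AS against 7.94 RPKM (2289 reads), giving a log2 ratio of 0.19 with an interval from 0.11 to 0.28. GCN2, encoded by Eif2ak4 on chr2:118388618-118475234, was at 5.83 RPKM (1951 reads) with AS against 5.94 RPKM (2251 reads), giving a log2 ratio of -0.03 with an interval from -0.12 to 0.06. PKR, encoded by Eif2ak2 on chr17:78852564-78882573 and the most deeply sequenced of the 10 genes, was at 34.5 RPKM in both libraries, with 7912 reads (AS) and 8954 reads (vehicle). Its interval, from -0.04 to 0.04 on the log2 scale, was the narrowest. None of the kinases was thus past either fold threshold. In the annotation, exons of Eif2ak3 overlap the antisense gene Gm43292 and exons of Eif2ak1 overlap the antisense genes Ankrd61 and Aimp2. Exons of Eif2ak2 overlap the antisense genes n-R5s29 and Gm26637, which were not among the genes analysed. The strand setting of the counting is not given in the sources used here.

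Within a library, shares of the 4 kinases do not depend on the scaling between libraries. PKR made 65.9% of the summed kinase RPKM with the vehicle, with a counting interval from 65.1% to 66.6%, and 64.2% with AS, from 63.4% to 65.0%. HRI made 15.2% with the vehicle, from 14.6% to 15.8%, and 16.9% with AS, from 16.3% to 17.6%. GCN2 made 11.4% and 10.9%, and PERK 7.56% and 8.04%. The order of the kinases was the same in both libraries, and the sum was 52.3 RPKM with the vehicle and 53.7 with AS. Ern1, which is also a kinase but does not act on eIF2α, was at 0.788 of the level of Eif2ak3 with the vehicle and at 1.53 times that level with AS. The difference of their log2 ratios was 0.96 with a counting interval from 0.81 to 1.11.

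**Figure D4:**
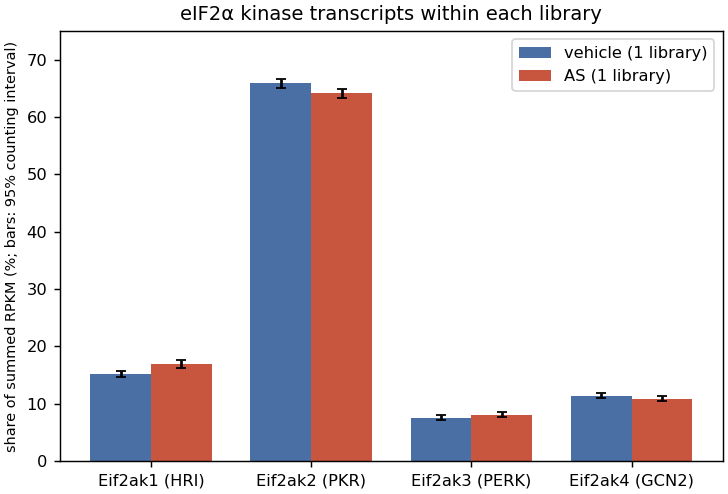
Share of each eIF2α kinase gene in the summed RPKM of the 4 kinase genes, in percent, for the vehicle library (blue) and the AS library (red), with 95% counting intervals. Eif2ak2 makes 65.9% with the vehicle and 64.2% with AS, and the order of the genes is the same in both.

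The substrate of the kinases and the factors around it were mostly short of the fold threshold, and 15 of 26 genes of the ATF4 list were past it. Of 14 genes of eIF2, its exchange factor eIF2B and its phosphatase, 1 was past 1 upward and 0 downward, with a median of 0.06. Eif2s1, the gene of eIF2α itself, was at 31.6 RPKM with AS against 32.5 RPKM in the vehicle library. The gene past 1 was Ppp1r15a, the stress-induced subunit of the eIF2α phosphatase and itself an ATF4 pathway gene, at 20.3 RPKM with AS against 9.01 RPKM, or 1.17 on the log2 scale. Ppp1r15b, the constitutive subunit, was at 10.96 RPKM with AS against 9.01 RPKM, or 0.28 on the log2 scale. Of 11 regulators of the kinases 0 were past 1, against 0.972% of all genes in either direction, with a median of -0.01. Gcn1, whose protein activates GCN2 on ribosomes, was at 6.45 RPKM with AS against 6.86 RPKM in the vehicle library, and Dnajc3, the gene of a co-chaperone that restrains PERK and PKR, at 6.85 against 6.99 RPKM. Of 28 genes listed as ATF4 and amino acid response targets, Atf4 among them, 26 were analysed. Of these, 15 were past 1 upward and 0 downward, with a median of 1.07, where 0.662% of all genes were past 1 upward. The count was 13 with 1 RPKM added and with TMM or median-of-ratios scaling. The largest were Slc7a11, a cystine transporter (3.47), Trib3, a pseudokinase (2.10), Gpt2, an alanine aminotransferase (1.88), and Asns, asparagine synthetase (1.75). Atf4 itself was at 123 RPKM with AS against 75.5 RPKM in the vehicle library, or 0.70 on the log2 scale, and Ddit3, the gene of CHOP, at 101 against 31.5 RPKM. Membership of these lists was written with earlier results of these data known, so the counts describe the lists and support no direction. The values of the 4 kinase genes and those of the ATF4 targets stand side by side here, and phosphorylation of eIF2α was not measured in these libraries.

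PKR is itself made in response to interferon, and its gene start held a match to the element that interferon factors bind. The window is printed because the interferon-stimulated response element (ISRE) core was matched in it, 19 bases after the RefSeq start on the gene's strand. Of all promoter windows of the table's genes 3.002% hold this core on either strand. The window is at chr17:78882535-78882564 on the minus strand (GRCm38.p6, RefSeq), in the first, untranslated exon, and the capitals mark the match.
Eif2ak2: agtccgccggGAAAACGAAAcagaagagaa
Of 27 interferon-stimulated genes 24 were analysed, and 0 were past 1 in either direction, against 0.972% of all genes. With 0 RPKM added, 1 was past it upward. Their median log2 fold change was 0.23, or 0.12 with 1 RPKM added. Mx1, which was the highest at 0.98 and was chosen after its value was seen, was low, at 0.363 RPKM with AS against 0.134 RPKM. Eif2ak2 was at 34.5 RPKM in both libraries.

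The pair of ATF6 genes differed from each other. Atf6, on chr1:170704674-170867771 on the minus strand, was at 6.38 RPKM with AS against 4.52 RPKM in the vehicle library, with 2644 and 2120 reads. Its log2 fold change of 0.49 was second to that of Ern1, with an interval from 0.41 to 0.58, and lay at percentile 94.3 of all genes but under both fold thresholds. Atf6b, on chr17:34647146-34655074 on the plus strand, was at 4.999 RPKM (619 reads) with AS against 4.66 RPKM (653 reads), giving a log2 ratio of 0.10 with an interval from -0.06 to 0.26. Both mRNAs were near the same level with the vehicle, where Atf6 stood at 0.97 of Atf6b, and with AS it stood at 1.28 times that level. The difference of the log2 ratios was 0.40 with a counting interval from 0.22 to 0.57. Over all genes 0.972% were past 1 in either direction. Of 12 escorts and partners of ATF6 11 were analysed and 0 were past 1, with a median of 0.04. Of 12 ATF6 targets 11 were analysed and 0 were past 1, with a median of -0.10, and 7 of the 11 were lower with AS. Over all genes the median was 0.07, and 60.9% were higher with AS. Calr, the gene of the chaperone calreticulin, which stands in both lists and was chosen after its value was seen, was the lowest of each, at 263 RPKM with AS against 359 RPKM.

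The proteases that cut ATF6 were both higher with AS by less than either threshold. Mbtps1, on chr8:119508156-119558735, was at 16.5 RPKM with AS against 14.0 RPKM in the vehicle library, with 7802 and 7475 reads, and a log2 ratio of 0.24 with an interval from 0.19 to 0.29. Mbtps2, on chrX:157535371-157598715, was at 4.77 RPKM (2166 reads) with AS against 3.69 RPKM (1894 reads), giving a log2 ratio of 0.36 with an interval from 0.28 to 0.46. Site-1 protease mRNA was the more abundant throughout, at 3.78 times the level of Mbtps2 with the vehicle and 3.45 times with AS. Exons of Mbtps2 overlap Yy2 on the same strand, so reads of this gene are uncertain to that extent. The same proteases release the sterol regulators SREBP-1 and SREBP-2. Of 11 genes listed as substrates and their escort 9 were analysed, with 0 past 1, against 0.972% of all genes in either direction, and a median of -0.02. The list also holds Insig1 and Insig2, which are neither, and Insig1 is among the SREBP-2 targets as well. Srebf1 was at 3.81 RPKM with AS against 5.02 RPKM in the vehicle library, and Srebf2 at 7.997 against 10.7 RPKM. Of 14 SREBP-2 targets 13 were analysed, and all 13 were lower with AS, with a median log2 fold change of -0.71. Of these, Idi1, a gene of isoprenoid synthesis, was past 1 downward at -1.03, and 10 were past 1.5-fold downward. Over all genes, 5555 of 14197 were lower with AS, 0.31% were past 1 downward and 2.01% were past 1.5-fold downward. The count of SREBP-2 targets past 1 downward was 0 with 1 RPKM added and 2 with TMM, median-of-ratios or upper-quartile scaling.

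**Figure D5:**
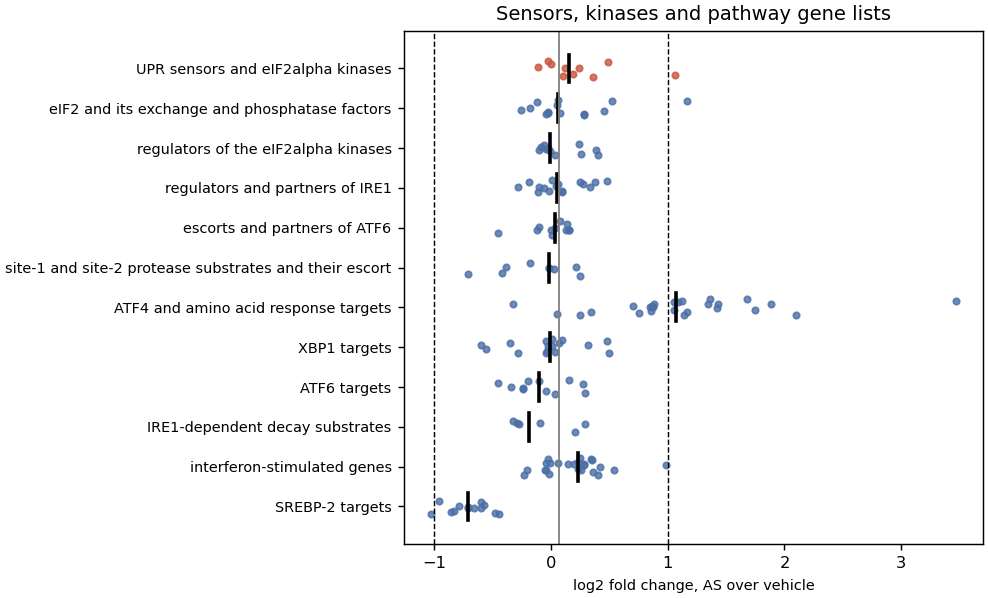
Log2 fold change of AS over vehicle for each gene of the pathway lists, without the cell type markers (points), with the list median (black bars), the median of all genes (grey line) and dashed lines at the fold threshold. The 10 sensor and kinase genes (red) centre on 0.16, the ATF4 list on 1.07 and the SREBP-2 targets on -0.71, and the medians of the other lists plotted lie between -0.18 and 0.23.

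The starts of these genes were searched for the elements through which stress factors bind, in windows from 250 bases before to 50 bases after the RefSeq start, on both strands. Windows for 9 of the 10 genes were matched, and Atf6 was not analysed here in this way. The C/EBP-ATF composite element core TGATGNAA, which ATF4 binds and which 2.12% of the windows of the table's genes hold, was matched in 0 of the 9 genes. The ER stress response element (ERSE), found in 0.129% of the windows, and the unfolded protein response element core TGACGTGG, found in 0.864%, were also matched in 0. The cAMP response element TGACGTCA, in 3.06% of the windows, was matched in 0 as well. The antioxidant response element core TGACNNNGC, which is short and was found in 14.3% of the windows, was matched in Ern1, on the plus strand of the gene 122 bases before the start and on the other strand 11 bases before it, and in Atf6b. No match in such a window says only that these letters are not there. The part of the Ern1 window before all annotated transcripts is at chr11:106487853-106488046 on the minus strand (GRCm38.p6, RefSeq). It is printed because Ern1 was the gene past the fold threshold. The capitals mark the antioxidant element core 122 bases before the RefSeq start. That start lies past the end of the printed part, as does the match 11 bases before it.
Ern1: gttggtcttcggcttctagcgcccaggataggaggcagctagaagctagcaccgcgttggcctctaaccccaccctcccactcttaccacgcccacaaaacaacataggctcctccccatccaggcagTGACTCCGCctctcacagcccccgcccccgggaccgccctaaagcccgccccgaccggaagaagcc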

How the data were processed

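RNA-sequencing of 4T1 cells treated with AS or vehicle gave 1 library per condition, prepared with a stranded mRNA kit. The authors deposited 1 table with the RPKM of each library, a log2 of the mean CPM, and columns of their own comparison (log2 fold change, p-value and FDR), which were not used. The submitters' processing notes list fastp 0.23.4, STAR 2.5.3a, featureCounts and the human build GRCh38, although the cells are murine. The gene annotation, strand setting and low-count filter are not given in the sources used here. The methods call genes by a log2 fold change beyond 1 and an FDR, of which the fold was applied here.

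The RPKM unit was found from the values: RPKM times exon length in GENCODE M21 (GRCm38) is a whole multiple of 1 constant per library for 99% (AS) and 98.3% (vehicle) of the 300 lowest genes tested, within 0.0001 reads. Library sizes of 44909683 and 50820728 follow. Whole reads were recovered for 14197 genes with the exon length searched within 10% of that implied by the deposited log2 mean CPM, and 94.1% of 13502 lengths were equal to those in M21, as were all 10 described here. Coordinates are those of M21 and do not fix the authors' build. The recovery of reads and the fold rule were tested on simulated data.

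Fold changes used 0.1 RPKM added and no p-value. The counting intervals (95%) are Clopper-Pearson for ratios of reads, exact Poisson intervals for levels and normal approximations of counting error for shares and differences. Alternatives were 0 or 1 RPKM added, scaling by upper quartile, by TMM or by median of ratios, a mean of at least 1 RPKM and a 1.5-fold threshold. Named are the 10 genes, up to 4 rises and 4 falls past 1 per list and fixed partners, and other genes are said to be chosen after their values were seen. The genes, lists and motifs were chosen with earlier results of these data known. A planned comparison of protein sequences was not run. Python 3.11.15, numpy 2.4.6, pandas 2.3.3 and scipy 1.17.1 were used.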

Additional observations from a re-analysis of the deposited data

How the results depend on the processing

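The count of sensor and kinase genes past a log2 fold change of 1 was 1, and it was 0 with 1 RPKM added and with TMM or median-of-ratios scaling. That gene, Ern1, moved from 1.06 to 0.89 with 1 RPKM added and to 0.99 with either scaling, and it was 1.01 with upper-quartile scaling and 1.09 with 0 RPKM added. Over all genes, 94 were past 1 upward and 44 downward. With 0 RPKM added 161 were past it upward, with 1 RPKM added 38 upward and 16 downward, and at the 1.5-fold threshold 505 upward and 286 downward. TMM scaling gave 75 upward and 55 downward. Of the other 9 genes, Eif2ak2 and Mbtps1 moved by more than their counting intervals with all 3 scalings, since these take 0.05 to 0.07 off every gene, and no direction of Mbtps1 turned. The kinase shares not divided by length were 60.9% with the vehicle and 59.3% with AS for Eif2ak2. No paired analysis was possible because each condition has 1 library, and for the same reason no library could be left out. Depth does not limit these genes, but the spread between dishes could not be measured.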
